A study of Homo sapiens with 6 samples.

Results

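The proteasome gene set comprised the 48 genes, of 26485 listed, whose symbols are PSM, a family letter from A to G and a number: the subunits of the 20S core and 19S regulator, their assembly chaperones, and the activators and inhibitor of the core. RNA-seq was performed on THP1 cells, a human acute monocytic leukemia line, treated for 6 h with Withaferin A (WFA), a steroidal lactone from Withania somnifera, or with the solvent DMSO alone. Each group held 3 libraries, 1 from each of 3 independent experiments. The sample titles give the WFA concentration as 1 mM and the methods of the study give 1 μM. The series holds no other agent, time or cell line, so all values describe a single line, unmodified in both groups. RNA-seq addressed the effect of short-term WFA on gene expression, and the comparison here asked which proteasome genes changed in mRNA level.

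The proteasome degrades proteins that carry ubiquitin chains. Its barrel-shaped 20S core has outer rings of alpha subunits and inner rings of beta subunits, of which PSMB5, PSMB6 and PSMB7 carry the constitutive peptidase sites. The 19S regulator caps the barrel: its base holds a ring of ATPases that unfold and feed in the substrate, and its lid removes the ubiquitin chain. Dedicated chaperones assemble both parts and then leave them. In cells of hematopoietic origin, the core can instead carry the inducible peptidase subunits PSMB8, PSMB9 and PSMB10 of the immunoproteasome, and ring-shaped activators such as PA28 can replace the 19S cap.

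Libraries held between 11006035 and 13872810 counts assigned to genes. The proteasome genes took 0.546% to 0.561% of them in DMSO and 0.504% to 0.538% in WFA, lower in every WFA library. These shares are unscaled. Scaling factors used in the tests (trimmed mean of M values) were 1.01 to 1.05 in DMSO and 0.96 to 0.98 in WFA. All 10 monocyte and myeloid markers examined were detected, with 16905 to 25944 counts of LYZ per library, and 6 of the 10 were lower with WFA, as were 24.7% of all genes tested. All 3 T cell markers had at most 3 counts per library and all 3 erythroid markers had 0. Among the fibroblast markers, COL1A1 (3 to 135 counts) was higher with WFA, while DCN had at most 1 count and COL1A2 had 0. The 3 epithelial markers had at most 4 counts per library. The part of these markers in the proteasome results was not tested. In bulk RNA, fewer cells expressing a gene and less of its RNA per cell cannot be told apart.

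Most of the proteasome was close to level between WFA and DMSO, and the largest changes were in 4 of the 7 assembly chaperones with PSM symbols. Of the 48 genes, 43 had enough counts to be tested. Of these, 7 were higher with WFA and 8 were lower at an adjusted p below 0.05 (edgeR quasi-likelihood test, Benjamini-Hochberg adjustment over all genes tested), and 28 did not pass. Among all 12854 genes tested, 25.8% were higher and 24.7% were lower, 50.5% in all, against 34.88% of the proteasome genes. The median log2 fold change of WFA over DMSO was -0.02 for the 43 genes and 0.02 for all genes tested. A log2 fold change within 0.5 of 0 was found for 39 of the 43 (90.7%) and for 63.44% of all genes tested. Only PSMD10 passed with a rise of over 2-fold, which 8.11% of all genes did, and PSMG4 and PSMD5 passed with a fall of over 2-fold, which 5.2% of all genes did. All of PSMG4, PSMD5, PSMG1 and PSMD10, the 4 genes outside the 0.5 band, encode assembly chaperones. The 3 values of one group all lay above those of the other for 21 of the 43 genes, and for 58.1% of all genes tested.

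**Figure D1:**
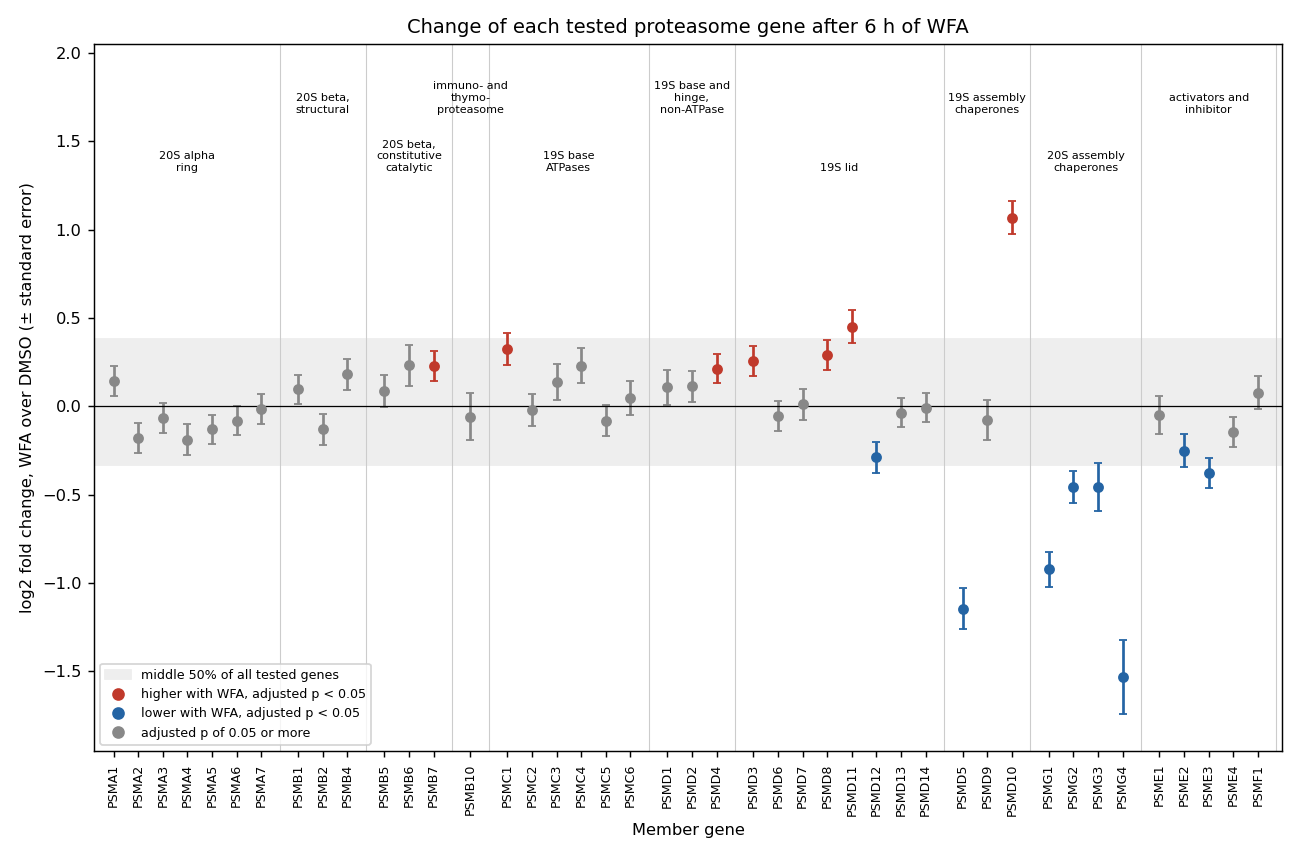
Log2 fold change of WFA over DMSO (vertical axis, ± standard error from the edgeR fit on 3 libraries per group) for the 43 tested proteasome genes, ordered by subcomplex; red, higher; blue, lower; grey, adjusted p of 0.05 or more; shaded, the middle 50% of all tested genes. The core and regulator subunits lie within 0.5 of 0, while PSMD10 stands at 1.07 and PSMD5, PSMG1 and PSMG4 lie between -1.53 and -0.92.

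The 4 chaperones of the 20S core with PSM symbols, PSMG1 to PSMG4, were all lower with WFA, where 24.7% of all genes tested were lower. A further core chaperone, POMP, did not pass (log2 fold change -0.10, adjusted p = 0.361, edgeR). PSMG1 and PSMG2 form a pair that gathers the alpha ring, and PSMG3 and PSMG4 form a second pair that works on the same ring. Their median log2 fold change was -0.69, and it was -0.68, -0.63 and -0.79 in the 3 pairs of libraries with the same replicate number. Their expression summed to 154 ± 0.329 CPM (counts-per-million, scaled by the trimmed mean of M values, here and in all levels given; mean ± SD, n = 3) in DMSO and to 98.4 ± 6.18 CPM in WFA.

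PSMG4 (chromosome 6) fell the most of all 43. Its level was 6.68, 6.00 and 5.92 CPM in DMSO replicates 1 to 3 and 2.21, 2.34 and 1.86 CPM in WFA replicates 1 to 3. The groups did not overlap, and the log2 fold change was -1.53 (SE 0.21, adjusted p = 2.58e-05, edgeR). PSMG4 was also the least expressed of the tested genes per kilobase of transcript, at 7.40 CPM per kb in DMSO. PSMG1 (chromosome 21) was measured at 59.7, 55.8 and 56.2 CPM in DMSO and at 32.8, 29.7 and 28.0 CPM in WFA. Every WFA library was below every DMSO library, with a log2 fold change of -0.92 (SE 0.10, adjusted p = 2.24e-06, edgeR).

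Their partners PSMG2 and PSMG3 had smaller falls. PSMG2 went from 65.9 to 71.7 CPM across the DMSO libraries to 48.1 to 53.3 CPM in WFA, a log2 fold change of -0.46 (SE 0.09, adjusted p = 6.29e-04, edgeR). PSMG3 went from 20.4 to 23.8 CPM in DMSO to 13.9 to 18.8 CPM in WFA, a log2 fold change of -0.45 (SE 0.13, adjusted p = 0.0110, edgeR). Without WFA replicate 3, the change of PSMG3 was -0.36 with an adjusted p of 0.0537; over all 14 alternative settings its adjusted p ranged from 3.36e-04 to 0.0537. Within libraries, the log2 ratio of PSMG1 to PSMG2 counts was -0.26 ± 0.11 in DMSO and -0.73 ± 0.15 in WFA (SD, n = 3), lower in all 3 WFA libraries than in any DMSO library. The log2 ratio of PSMG4 to PSMG3 was -1.82 ± 0.14 in DMSO and -2.86 ± 0.10 in WFA. Between libraries of the same replicate number, the ratio of PSMG1 to PSMG2 differed by -0.42, -0.55 and -0.43 and that of PSMG4 to PSMG3 by -1.07, -0.99 and -1.06. The genes for these ratios were chosen after the values were seen, so the ratios are given as a description with no test.

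**Figure D2:**
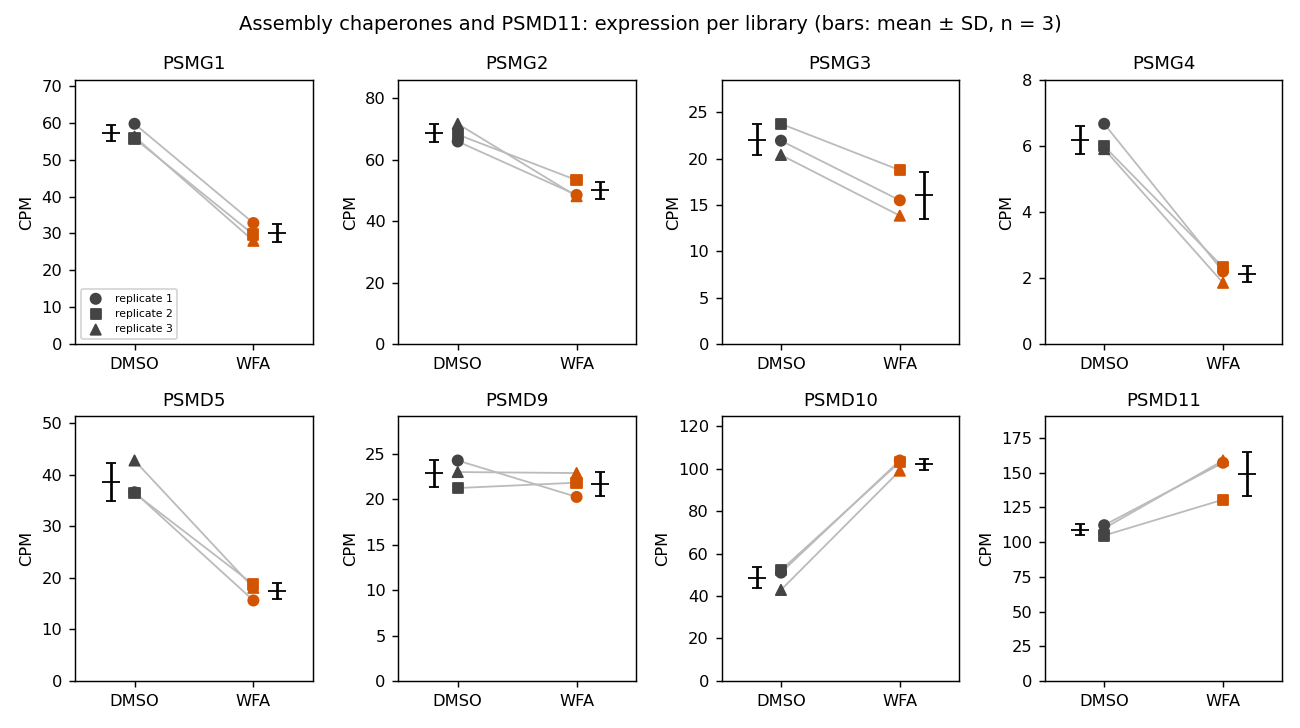
Expression in CPM (vertical axis, from 0) of the 7 assembly chaperones with PSM symbols and of PSMD11 in each library. DMSO libraries are grey and WFA libraries orange, lines join libraries of the same replicate number and bars give the mean ± SD (n = 3). The groups are apart in every panel except PSMD9, and PSMD10 and PSMD11 are the panels in which WFA is higher.

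The 3 chaperones of the 19S base with PSM symbols went in different directions. Each of them binds ATPases of the base before the regulator is complete. PSMD10, also known as the oncoprotein gankyrin, had the largest rise of the 43 genes. It was at 51.0, 52.1 and 42.8 CPM in DMSO and at 104, 103 and 99.0 CPM in WFA. The lowest WFA library was thus far above the highest DMSO library, and the log2 fold change was 1.07 (SE 0.09, adjusted p = 3.27e-07, edgeR), a 2.10-fold rise. PSMD5 moved the other way, from 36.6, 36.4 and 42.7 CPM in DMSO to 15.6, 18.7 and 18.1 CPM in WFA. Its groups did not overlap either, and the log2 fold change was -1.14 (SE 0.12, adjusted p = 1.63e-06, edgeR). PSMD9 was at 21.2 to 24.3 CPM in DMSO and 20.3 to 22.9 CPM in WFA, with overlapping groups and a log2 fold change of -0.08 (SE 0.12, adjusted p = 0.596, edgeR).

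The log2 ratio of PSMD10 to PSMD5 counts was 0.48, 0.52 and 0.00 in the DMSO libraries and 2.73, 2.46 and 2.45 in the WFA libraries. The ratio joins a gene that rose and a gene that fell, chosen after their values were seen, and is given as a description. The exact two-sided permutation test gave p = 0.1, the smallest possible, and no conclusion is drawn from it. The listed antisense transcript of PSMD5, PSMD5-AS1, was lower as well, with 64 to 68 counts in DMSO and 36 to 44 in WFA (log2 fold change -0.61, SE 0.20, adjusted p = 0.0222, edgeR). PSMD5 shares 0% of the exon bases of its main transcript with any other gene model. The library kit does not mark strand, so where genes on opposite strands do share exon bases, their reads cannot be told apart.

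The promoters are shown of the genes with the largest log2 fold changes that passed, an equal number from each direction. They are the 250 bases before the RefSeq start site on the GRCh38.p14 assembly, read 5′ to 3′ on the strand of the gene, and capitals mark a match to any of the motifs searched, which are spelled out further on. PSMD10 lies at chrX:108091543-108091792 on the minus strand, PSMD11 at chr17:32444260-32444509 on the plus strand, PSMG4 at chr6:3258697-3258946 on the plus strand and PSMD5 at chr9:120842923-120843172 on the minus strand.
PSMD10: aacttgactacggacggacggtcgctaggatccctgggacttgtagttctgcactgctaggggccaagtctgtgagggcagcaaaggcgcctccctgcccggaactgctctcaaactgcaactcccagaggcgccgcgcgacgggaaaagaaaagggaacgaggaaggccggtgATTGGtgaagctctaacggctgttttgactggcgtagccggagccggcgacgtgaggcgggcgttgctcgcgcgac
PSMD11: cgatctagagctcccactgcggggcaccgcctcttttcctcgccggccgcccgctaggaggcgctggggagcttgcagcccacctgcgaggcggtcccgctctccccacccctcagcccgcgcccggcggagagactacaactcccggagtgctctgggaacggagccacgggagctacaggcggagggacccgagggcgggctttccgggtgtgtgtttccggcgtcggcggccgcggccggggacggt
PSMG4: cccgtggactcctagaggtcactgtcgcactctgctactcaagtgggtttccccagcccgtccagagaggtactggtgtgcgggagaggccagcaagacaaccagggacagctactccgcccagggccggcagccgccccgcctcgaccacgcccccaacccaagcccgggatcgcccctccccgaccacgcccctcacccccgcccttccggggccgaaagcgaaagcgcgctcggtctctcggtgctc
PSMD5: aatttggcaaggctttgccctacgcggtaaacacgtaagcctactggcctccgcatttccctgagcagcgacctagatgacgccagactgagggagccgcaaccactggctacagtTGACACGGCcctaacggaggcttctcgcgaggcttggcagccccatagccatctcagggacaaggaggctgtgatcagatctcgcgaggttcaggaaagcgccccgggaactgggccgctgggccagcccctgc
The PSMD10 promoter held an inverted CCAAT box 76 bases before the start site, and the PSMD5 promoter held an antioxidant response element core beginning 134 bases before it. PSMD11 and PSMG4, of which the first rose and the second fell, held no match. The GC content of the 4 stretches was 62.0%, 73.2%, 69.6% and 61.6%.

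The 17 subunits of the 19S regulator were near level, and 5 were higher and 1 was lower with WFA, where 25.8% of all genes tested were higher and 24.7% lower. Their median log2 fold change was 0.11 and all 17 lay within 0.5 of 0. Expression summed to 2371 ± 78.0 CPM in DMSO and 2539 ± 166 CPM in WFA. In the base, 1 of the 6 ATPases was higher. PSMC1, an ATPase whose tail takes part in opening the core, was at 84.1, 84.3 and 86.7 CPM in DMSO and at 117, 94.1 and 108 CPM in WFA. The groups did not overlap, with a log2 fold change of 0.32 (SE 0.09, adjusted p = 0.00860, edgeR). Of the exon bases of its main transcript, 82.15% are shared with NRDE2 on the opposite strand, and NRDE2 itself had a log2 fold change of 0.12 (SE 0.11, adjusted p = 0.372, edgeR). PSMC4 followed, at 80.8, 71.3 and 66.2 CPM in DMSO and 91.4, 77.1 and 87.8 CPM in WFA. Its groups overlapped, and the log2 fold change of 0.23 (SE 0.10) did not pass (adjusted p = 0.0646, edgeR), but passed with the replicate number as a block (adjusted p = 0.0144). Adjusted p ranged from 0.0144 to 0.230 over the alternatives. The other 4 ATPases, PSMC2, PSMC3, PSMC5 and PSMC6, had log2 fold changes between -0.08 and 0.14.

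PSMD1 and PSMD2, the large scaffolds of the base, and PSMD4, a receptor for ubiquitin chains, had log2 fold changes between 0.11 and 0.21, and only PSMD4 passed. PSMD4 was at 203, 202 and 199 CPM in DMSO and 227, 224 and 249 CPM in WFA. The WFA libraries were all higher, with a log2 fold change of 0.21 (SE 0.08, adjusted p = 0.0428, edgeR). The call on PSMD4 was lost in 9 of 14 alternative settings, among them the omission of any single DMSO library (adjusted p = 0.105, 0.115 and 0.0896 without replicates 1 to 3) and of WFA replicate 1 (0.0501) or 3 (0.128). Over all alternatives its adjusted p ranged from 0.0151 to 0.214. PSMD2 was at 253, 228 and 231 CPM in DMSO and 263, 237 and 271 CPM in WFA. Its groups overlapped, and its log2 fold change was 0.11 (SE 0.09, adjusted p = 0.301, edgeR).

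The lid showed changes in both directions. Of its 8 subunits 3 were higher, 1 was lower and 4 did not pass, beside the same 25.8% and 24.7% of all genes, and the median log2 fold change was 0.00. PSMD11, a scaffold of the lid that also touches the core, rose the most: it was at 112, 105 and 110 CPM in DMSO and 157, 131 and 159 CPM in WFA. No WFA library came down to the DMSO range, and the log2 fold change was 0.45 (SE 0.09, adjusted p = 8.85e-04, edgeR). PSMD8, at 103, 102 and 91.6 CPM in DMSO and 118, 123 and 121 CPM in WFA, was also higher in all WFA libraries. Its log2 fold change was 0.29 (SE 0.08, adjusted p = 0.00905, edgeR). PSMD3 rose from 121 to 141 CPM in DMSO to 151 to 162 CPM in WFA, a log2 fold change of 0.26 (SE 0.09, adjusted p = 0.0219, edgeR). The call on PSMD3 was lost without DMSO replicate 2 (adjusted p = 0.0656), DMSO replicate 3 (0.0924) or WFA replicate 1 (0.0605), and with scaling by total counts (0.104), within a range of 0.00318 to 0.104 over the alternatives.

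PSMD12 was the lid subunit that fell. It was at 139, 130 and 148 CPM in DMSO and 121, 106 and 114 CPM in WFA. The groups did not overlap, with a log2 fold change of -0.29 (SE 0.09, adjusted p = 0.0127, edgeR). Without DMSO replicate 3 the adjusted p was 0.0511 and without WFA replicate 2 it was 0.0580, in a range of 0.00104 to 0.0580 over the alternatives. The deubiquitinase PSMD14, which cuts the ubiquitin chain from the substrate, was at 151 to 156 CPM in DMSO and 142 to 160 CPM in WFA, with a log2 fold change of -0.01 (SE 0.08, adjusted p = 0.945, edgeR). Its structural partner PSMD7 was at 0.01, and PSMD6 and PSMD13 were at -0.05 and -0.04 on the log2 scale, none past the test.

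The 20S core was near level. Of its 13 tested alpha, structural beta and constitutive catalytic subunits only PSMB7 passed (7.69%), against 50.5% of all genes tested. The core summed to 2024 ± 83.7 CPM in DMSO and 2031 ± 62.9 CPM in WFA, and the median log2 fold change was -0.02. None of the 7 tested alpha subunits passed, with log2 fold changes from -0.19 (PSMA4) to 0.14 (PSMA1) and a median of -0.08. PSMA4 was at 189, 221 and 197 CPM in DMSO and 180, 175 and 178 CPM in WFA. Although the groups were apart, the log2 fold change of -0.19 (SE 0.09) had an adjusted p of 0.0836 (edgeR). PSMA2 was at 153, 161 and 145 CPM in DMSO and 143, 134 and 129 CPM in WFA, again without overlap, with a log2 fold change of -0.18 (SE 0.08, adjusted p = 0.0899, edgeR). Both passed with the replicate block, at adjusted p = 0.0366 for PSMA4 and 0.0461 for PSMA2. Over the alternatives, PSMA4 ranged from 0.0147 to 0.295 and PSMA2 from 0.0146 to 0.228. PSMA2 shares 54.14% of its exon bases with other gene models, among them MRPL32 on the opposite strand, which fell (log2 fold change -0.62, SE 0.11, adjusted p = 2.42e-04, edgeR).

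Of the structural beta subunits, PSMB4 had the highest level per kilobase of transcript among all 43 genes, at 257 ± 16.5 CPM per kb in DMSO (SD, n = 3). PSMB4 was at 257, 257 and 229 CPM in DMSO and 269, 284 and 290 CPM in WFA. The groups did not overlap, and the log2 fold change was 0.18 (SE 0.09) with an adjusted p of 0.0941 (edgeR), and of 0.0399 with the replicate block; the alternatives ranged from 0.0399 to 0.361. PSMB2 was at 163, 149 and 155 CPM in DMSO and 154, 131 and 142 CPM in WFA. Its groups overlapped, with a log2 fold change of -0.13 (SE 0.09, adjusted p = 0.231, edgeR). PSMB1 had a log2 fold change of 0.10 and did not pass.

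The 3 constitutive peptidases all had positive log2 fold changes. PSMB7, with trypsin-like activity, was at 88.5, 91.3 and 81.4 CPM in DMSO and 106, 96.3 and 104 CPM in WFA. The WFA libraries were all above the DMSO libraries, with a log2 fold change of 0.23 (SE 0.09, adjusted p = 0.0367, edgeR). This call was lost in 9 of 14 alternatives, including the omission of DMSO replicates 1, 2 or 3 (adjusted p = 0.0810, 0.0585 and 0.128) and of WFA replicates 1 or 3 (0.0918 and 0.0786), and its adjusted p ranged from 0.0136 to 0.172. PSMB6, with caspase-like activity, was at 34.7, 30.5 and 26.3 CPM in DMSO and 35.3, 34.0 and 38.4 CPM in WFA. The groups overlapped, and the log2 fold change of 0.23 (SE 0.12) had an adjusted p of 0.110 (edgeR), and of 0.0374 with the replicate block, within 0.0374 to 0.376 over the alternatives. PSMB5, with chymotrypsin-like activity, was at 58.8 to 70.4 CPM in DMSO and 68.9 to 69.9 CPM in WFA, a log2 fold change of 0.09 (SE 0.09, adjusted p = 0.456, edgeR).

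**Figure D3:**
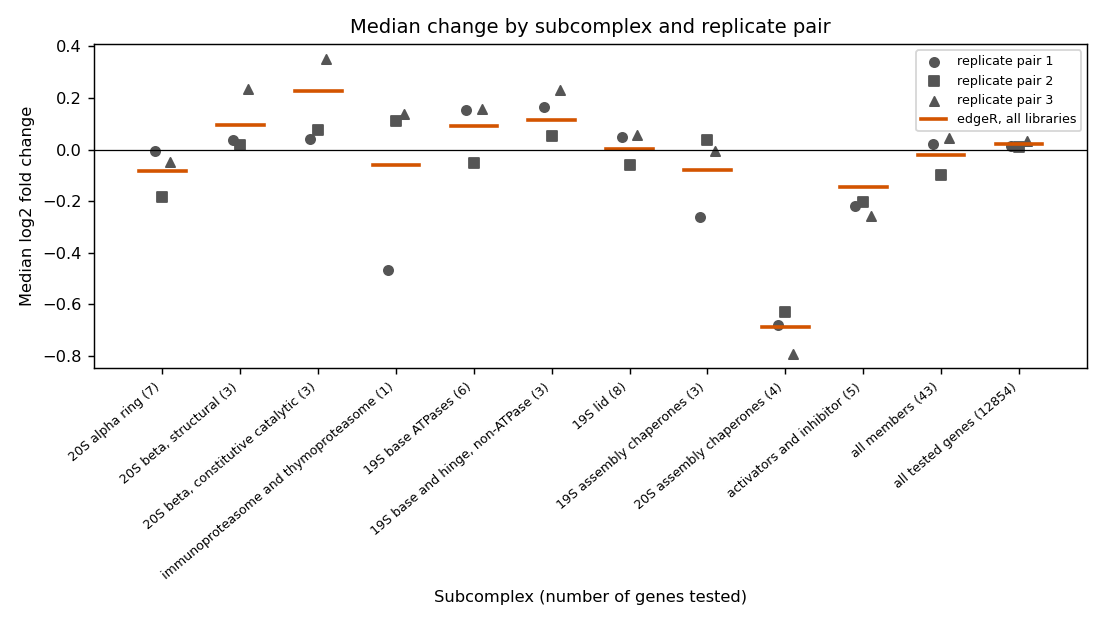
Median log2 fold change of WFA over DMSO (vertical axis) by subcomplex, with the number of tested genes in brackets: the orange line is the median of the edgeR estimates and the 3 grey symbols are the medians within each pair of same-numbered libraries. The 20S assembly chaperones lie at -0.69 with pairs from -0.79 to -0.63, and every other subcomplex median lies between -0.15 and 0.23.

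Of the alternative activators of the core, those of the PA28 family were lower in part. Among the 5 activator and inhibitor genes, 2 were lower and 3 did not pass, where 24.7% of all genes tested were lower. PSME3 encodes PA28 gamma, a nuclear activator that works without ubiquitin. PSME3 was at 226, 221 and 250 CPM in DMSO and 177, 174 and 186 CPM in WFA. The groups did not overlap, and the log2 fold change was -0.38 (SE 0.09, adjusted p = 0.00186, edgeR). PSME1 and PSME2 encode PA28 alpha and beta, the interferon-inducible pair that joins in a single ring. PSME2 was at 103, 100 and 90.2 CPM in DMSO and 88.9, 83.8 and 73.9 CPM in WFA, without overlap. Its log2 fold change was -0.25 (SE 0.09, adjusted p = 0.0357, edgeR). The call on PSME2 was lost without DMSO replicate 1 (adjusted p = 0.135), DMSO replicate 2 (0.0798), WFA replicate 2 (0.0564) or WFA replicate 3 (0.149), in a range of 0.00616 to 0.149 over the alternatives.

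PSME1 was at 101, 106 and 85.7 CPM in DMSO and 85.5, 108 and 89.2 CPM in WFA. These groups overlapped, and the log2 fold change was -0.05 (SE 0.11, adjusted p = 0.723, edgeR). Within pairs of the same replicate number it was -0.24, 0.02 and 0.06. The log2 ratio of PSME1 to PSME2 counts was -0.01 ± 0.08 in DMSO and 0.19 ± 0.22 in WFA (SD, n = 3). It differed by -0.02, 0.28 and 0.35 within pairs of libraries. This ratio too was chosen after the values were seen and is given as a description (exact two-sided permutation p = 0.3). PSME4 (PA200), an activator of nuclear cores, and PSMF1 (PI31), an inhibitor of the core in vitro, did not pass, with log2 fold changes of -0.15 (SE 0.08, adjusted p = 0.165) and 0.08 (SE 0.09, adjusted p = 0.513, edgeR).

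**Figure D4:**
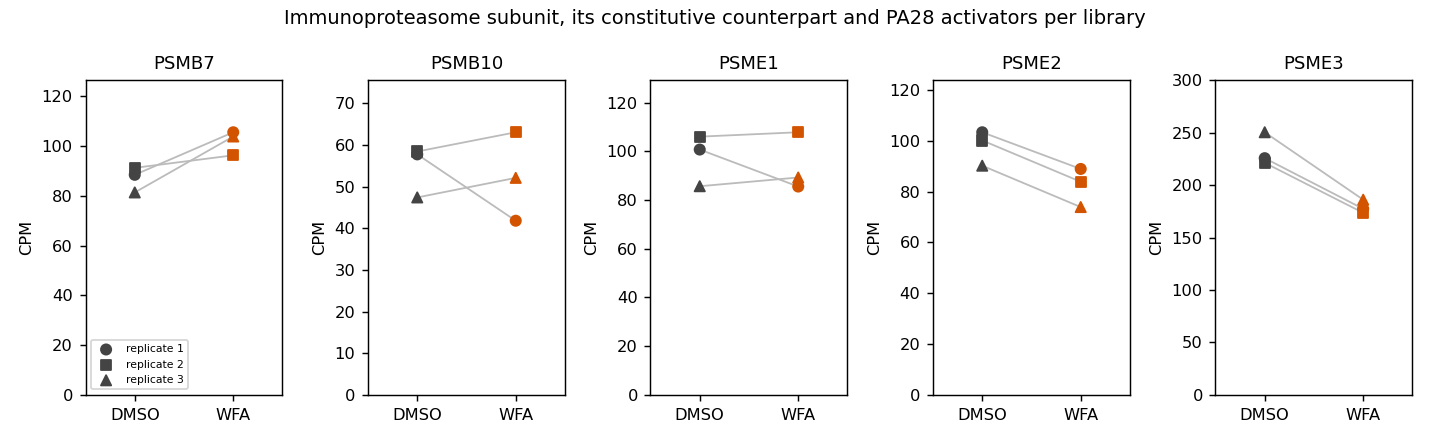
Expression in CPM (vertical axis, from 0) of PSMB7, the immunoproteasome subunit PSMB10 that takes its place, and the PA28 genes PSME1, PSME2 and PSME3 in each DMSO library (grey) and WFA library (orange), with lines joining libraries of the same replicate number. PSME2 and PSME3 fell in all 3 pairs, while PSMB10 and PSME1 fell in pair 1 only.

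Of the immunoproteasome peptidases, only PSMB10 could be tested, and it did not differ beyond the spread between libraries. PSMB10 was at 57.8, 58.4 and 47.4 CPM in DMSO and 41.8, 63.1 and 52.1 CPM in WFA. The WFA libraries included both the lowest and the highest value, with a log2 fold change of -0.06 (SE 0.13, adjusted p = 0.731, edgeR). Within pairs it was -0.47, 0.11 and 0.14, and it was 0.08 without WFA replicate 1. Of the exon bases of its main transcript, 30.71% are shared with another gene model on the same strand. The log2 ratio of PSMB10 to PSMB7 counts, which does not depend on library scaling, was -0.62, -0.64 and -0.78 in DMSO and -1.33, -0.61 and -0.99 in WFA. Its mean was lower by 0.30 with WFA, with an exact two-sided permutation p = 0.4 over libraries taken as unpaired, for which 0.1 is the smallest p that 3 against 3 allow. Within pairs of the same replicate number it differed by -0.72, 0.03 and -0.22. The same ratio was not computed for PSMB8 to PSMB5 or PSMB9 to PSMB6.

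The remaining 5 genes had too few counts for any test. PSMB9 had 1, 1 and 2 counts in DMSO and 1, 1 and 1 in WFA, and PSMB8 had 2, 1 and 1 in DMSO and 1, 0 and 1 in WFA. Both lie in the major histocompatibility complex (MHC) on chromosome 6, next to the peptide transporter genes TAP1 and TAP2, and the low counts extended to their neighbours. Within 500 kb of PSMB9, 24 of 32 listed protein-coding genes (75%) had at most 3 counts in every library, against 30.09% of the 17925 protein-coding genes listed. TAP1 reached 1 count and TAP2 reached 10 counts in any library. Elsewhere in the MHC, HLA-B had 1164 to 2036 counts and HLA-C had 1004 to 1583. Around PSMB10 on chromosome 16, 3 of 30 genes (10%) were as low.

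PSMB3, a structural beta subunit that every 20S core contains, was listed at 0 counts in all 6 libraries. The 5 genes closest to it on chromosome 17, MLLT6, CISD3, PCGF2, PIP4K2B and CWC25, were also at 0 in every library. Beyond them RPL23, 92.3 kb away, reached 13807 counts and LASP1 reached 4170. PSMA8, the alpha subunit of the testis, and PSMB11, the catalytic subunit of the thymus, were at 0 in every library as well. A count of 0 allows up to 3 counts per library, a limit that covers counting error only. No statement on the level of these 5 genes in THP1 cells was drawn from these counts.

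**Figure D5:**
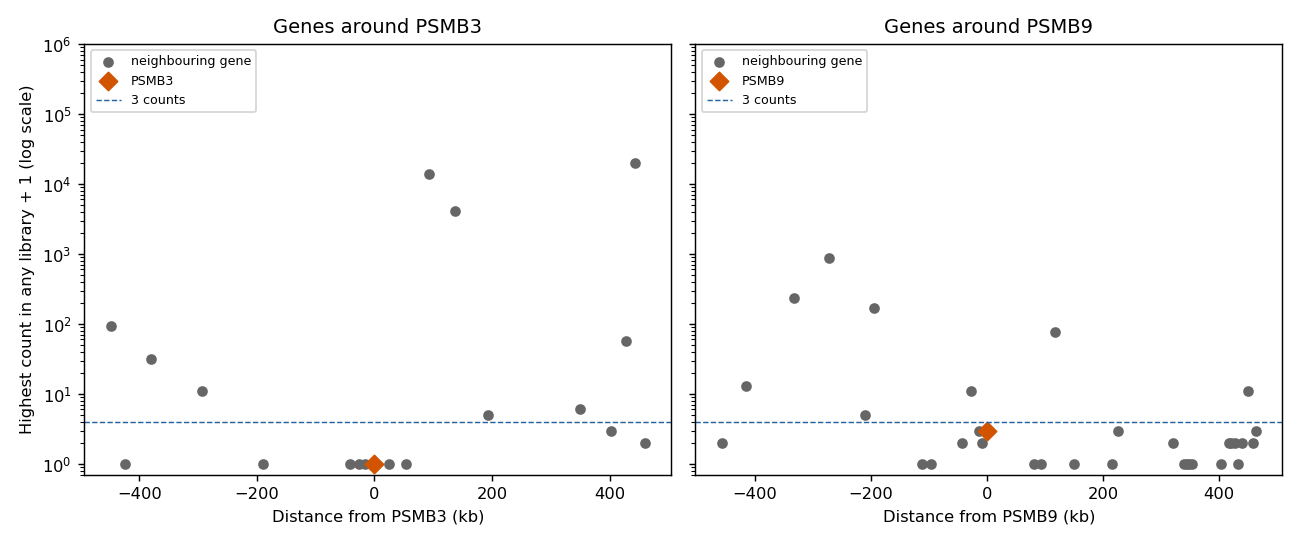
Highest count in any of the 6 libraries plus 1 (vertical axis, log scale) of each listed protein-coding gene within 500 kb of PSMB3 (left) and PSMB9 (right), by distance in kb from that gene; the diamond is the gene itself and the dashed line marks 3 counts. Both genes sit among neighbours at or near 0, with RPL23 at 13807 and HLA-DRB1 at 881 counts further out.

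Promoters of 42 of the 48 genes, each of 300 bases from 250 before to 50 after the start site, were searched on both strands for 4 motifs bound by factors that control proteasome or stress genes. PSMA7, PSMB1, PSMB6, PSMB7, PSMD4 and PSMG3 had no entry. The antioxidant response element (ARE) core, TGACNNNGC, which NFE2L1 and NFE2L2 bind with small MAF proteins, was in 15 of the 42 (35.7%) and in 16.1% of the promoters of 27305 genes. The CCAAT box was in 20 (47.6%, against 39.7% of all genes) and the E-box CACGTG in 3 (7.14%, against 8.77%). The heat shock element, taken as the units GAA, TTC and GAA each separated by NN, was in 0 of the 42, against 0.608% of all genes. Each motif was counted on its own, and a promoter could hold several. The 42 genes had 51 promoter entries, and a gene was counted if any of its entries held the motif. The ARE core was found in 1 of 5 genes that were higher, in 5 of 7 that were lower and in 7 of 25 that did not pass. PSMB7 and PSMD4, both higher, and PSMG3, which was lower, had no entry and are not in these counts. The matches in genes that changed are shown with up to 10 flanking bases, the core in capitals, to set the sequences beside the changes; each reads 5′ to 3′ on the strand that holds the match.
PSMD5: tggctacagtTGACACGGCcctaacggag
PSMG1: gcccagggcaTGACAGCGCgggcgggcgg
PSMG2: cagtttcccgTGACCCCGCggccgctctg
PSMD12: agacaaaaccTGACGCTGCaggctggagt
PSME2: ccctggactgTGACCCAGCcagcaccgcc
PSMD3: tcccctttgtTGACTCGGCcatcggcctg
PSMD3, opposite strand: ccgcacgaTGACGGAGCagctgcaaac
In the order shown, they lie at chr9:120843038-120843066, chr21:39183616-39183644, chr18:12658689-12658717, chr17:67366724-67366752, chr14:24146767-24146795, chr17:39980760-39980788 and chr17:39980830-39980856. The first bases of the cores were 134, 183, 39, 165, 175 and 37 bases before the RefSeq start site. The second core of PSMD3 was 34 bases after it. The cores of PSMG1, PSMG2 and PSME2 lie inside the GENCODE bounds of these genes, which begin further upstream. PSMD3 was higher with WFA, and the other 5 were lower. PSMD10 and PSMD11, the genes with the largest rises, had no ARE core in this window. A match is a description of the letters, and binding was not measured.

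Of 25 further genes of the pathway that do not carry a PSM symbol, 7 were higher, 4 were lower and 14 did not pass, with a median log2 fold change of 0.04, where 25.8% of all genes tested were higher and 24.7% lower. ZFAND2A, an arsenite- and heat-inducible zinc finger protein that binds the 19S regulator, rose the most. It was at 11.2, 9.87 and 10.8 CPM in DMSO and 80.0, 79.4 and 112 CPM in WFA. The groups were far apart, with a log2 fold change of 3.09 (SE 0.14, adjusted p = 6.25e-10, edgeR). Its relative ZFAND2B rose from 10.3 to 13.4 CPM in DMSO to 20.6 to 29.8 CPM in WFA, a log2 fold change of 0.99 (adjusted p = 1.03e-04). AKIRIN2, which takes assembled proteasomes into the nucleus, rose from 76.5 to 80.2 CPM in DMSO to 127 to 129 CPM in WFA, a log2 fold change of 0.71 (adjusted p = 3.36e-06). The shuttle factor UBQLN1, which brings ubiquitinated proteins to the proteasome, rose by 0.47 (adjusted p = 2.98e-04).

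ADRM1 and UCHL5, a ubiquitin receptor of the base and the deubiquitinase that docks on it, moved apart. ADRM1 was at 55.5, 54.6 and 47.8 CPM in DMSO and 70.4, 73.4 and 78.4 CPM in WFA, a log2 fold change of 0.49 (SE 0.09, adjusted p = 4.59e-04, edgeR). UCHL5 was at 178, 170 and 156 CPM in DMSO and 106, 104 and 78.4 CPM in WFA, a log2 fold change of -0.80 (SE 0.11, adjusted p = 2.37e-05, edgeR). Neither gene's groups overlapped. The other 3 that fell were RAD23B, a shuttle factor (log2 fold change -0.34, adjusted p = 0.00480), NGLY1, the enzyme that strips sugars from NFE2L1 (-0.35, adjusted p = 0.00385), and UBE3C, a ubiquitin ligase of the proteasome (-0.23, adjusted p = 0.0308). NFE2L1, a transcription factor that drives proteasome genes when proteasome activity falls short, was at 156, 152 and 163 CPM in DMSO and 209, 190 and 252 CPM in WFA. Its WFA libraries were all higher, with a log2 fold change of 0.47 (SE 0.10, adjusted p = 0.00139, edgeR). The 19S subunit SEM1, the core chaperone POMP and the assembly gene PAAF1 did not pass. Their log2 fold changes were 0.04 (adjusted p = 0.755), -0.10 (adjusted p = 0.361) and 0.19 (adjusted p = 0.163, edgeR).

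Of the 15 proteasome genes that passed, 9 passed with the same sign under all 14 alternative settings: PSMD10, PSMD11, PSMD8 and PSMC1 were higher, and PSMD5, PSMG1, PSMG2, PSMG4 and PSME3 were lower. With the replicate number as a block, 10 genes were higher and 10 lower, where 30.2% and 28.8% of all genes were, 59.0% in all. The 5 added were PSMB4, PSMB6 and PSMC4 (higher) and PSMA2 and PSMA4 (lower), and none was lost. None of these 5 passed in DESeq2 with the same block, where their adjusted p-values were 0.137, 0.225, 0.1004, 0.0643 and 0.0566 in that order. With the DESeq2 Wald test, 5 genes were higher and 8 lower, where 20.4% and 21.1% of all genes with an adjusted p were, 41.5% in all.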

How the data were processed

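RNA-seq libraries (Illumina TruSeq RNA v2, which does not mark strand) of THP1 cells treated for 6 h with DMSO or WFA (3 each, grouped by sample title) were analysed from raw read counts per gene symbol, as deposited by the authors. The submitters' processing notes name bcl2fastq 2.19, Trimmomatic, Bowtie2, Picard, featureCounts, DESeq2 and the hg38 build. The annotation, strand setting and handling of reads with several matches are not given in the sources used here, so near-identical copies and overlapping genes are uncertain. The authors also deposited normalized counts and dispersion fits (scores) and their own comparison as a fold (ratio), log2 fold change and p-values, none of which was used.

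Genes were filtered with filterByExpr (minimum count 10), scaled by trimmed mean of M values (TMM) and tested, WFA against DMSO, with the edgeR quasi-likelihood test (edgeR 4.0.16, limma 3.58.1, R 4.3.3) over all 6 libraries without a block, with Benjamini-Hochberg adjustment over 12854 genes and a threshold of 0.05. There were 4 residual degrees of freedom (2 with the block). The SE is the size of the log2 fold change divided by the square root of F. Depth was 11006035 to 13872810 counts per library, and the lowest count of a tested proteasome gene was 20. Same-numbered libraries carry the same experiment marker in the labels, and their deviations from the group means correlated at 0.22, 0.33 and 0.25 (all other pairs between -0.26 and 0.00), so the numbers pair the libraries.

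Ratios within libraries used log2 of counts plus 1. That of PSMB10 to PSMB7 was tested with an exact two-sided permutation test. The same test was run on the 4 ratios chosen after the values were seen. Their p-values, adjusted over the 4, were between 0.1333 and 0.3, and no conclusion is drawn from them. Gene positions and exon overlaps came from GENCODE (GRCh38), per-kilobase levels from the longest principal transcript, and promoters from RefSeq (GRCh38.p14). Alternatives were the replicate block, total-count and upper-quartile scaling, DESeq2 1.42.0, no filter, a minimum count of 50, a robust fit, the omission of each library and, added after the data were seen, DESeq2 with the block. Full values are given for the 2 genes with the smallest p per subcomplex and for those past the threshold against their subcomplex median. In the wider pathway, the 6 genes with the smallest p, those called in the minority direction and NFE2L1 are named. Some of these are given with only a part of the values. The genes and lists were chosen with earlier results of these data known. The fit was tested on simulated data. The result of 1 marker list is not reported here.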

Additional observations from a re-analysis of the deposited data

How the results depend on the processing

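The replicate block raised the numbers of proteasome genes higher and lower from 7 and 8 to 10 and 10 and ended no call. Scaling by total counts lowered the median of all genes by 0.08 on the log2 scale. With it, 4 proteasome genes were higher and 12 lower, and 2763 of all genes were higher and 3875 lower against 3311 and 3178 with TMM. Under total counts the median log2 fold change was -0.11 for the proteasome genes, -0.084 for the lid, -0.77 for the 20S assembly chaperones and -0.23 for the activators and inhibitor. DESeq2, with or without the block, and the unfiltered fit each gave 5 higher and 8 lower. A minimum count of 50 gave 8 and 8. Upper-quartile scaling and the robust fit gave 7 and 8.

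Leaving out each library in turn gave 4 to 8 genes higher (4 without DMSO replicate 2, DMSO replicate 3 or WFA replicate 1) and 6 to 8 lower, fewer libraries being tested in each. The median of the proteasome genes then ranged from -0.06 to 0.02, and it was above 0 without DMSO replicate 1 or WFA replicate 2. The median of the activators and inhibitor ranged from -0.20 to -0.12. No gene of the set that passed changed sign in any alternative. The difference of WFA from DMSO in the mean log2 ratio of PSMB10 to PSMB7 ranged from -0.49 to -0.12 without single libraries. It was -0.30 with a pseudocount of 10. The counts of PSMB3, PSMB8, PSMB9, PSMA8 and PSMB11 limit any statement on their levels.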

Other observations

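Some listed genes share exon bases with proteasome genes on the opposite strand. FTSJ3, which overlaps 21.03% of the exon bases of PSMC5 and acts in ribosome assembly, had a log2 fold change of -0.28 (SE 0.08, adjusted p = 0.0102, edgeR), and PSMC5 one of -0.08 (SE 0.09, adjusted p = 0.475). CEP76, which overlaps 17.14% of those of PSMG2, had a log2 fold change of 0.17 (SE 0.13, adjusted p = 0.305), and RNF31, next to PSME2, one of -0.21 (SE 0.11, adjusted p = 0.120). The differences between the overlapping genes were not tested.

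Among antigen presentation genes, HLA-B and HLA-C were higher with WFA (log2 fold changes of 0.42 and 0.30, adjusted p = 0.00726 and 0.0272, edgeR), and B2M was at 0.18 (adjusted p = 0.208). In the MHC list around PSMB8 and PSMB9, 7 of 14 genes had at most 3 counts in every library, of which 4 were at 0. The antisense transcripts PSMA3-AS1, PSMD6-AS2 and PSMG3-AS1 did not pass, at -0.09, 0.13 and 0.18 on the log2 scale.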
